A study of Mus musculus with 6 samples.

Results

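The genes described here handle metal ions: 3 metallothioneins (Mt1, Mt2, Mt3), the plasma iron carrier and its receptor (Trf, Tfrc), both ferritin chains (Fth1, Ftl1), the iron exporter and its partner oxidase (Slc40a1, Cp) and heme oxygenase 1 (Hmox1). They were taken by symbol, 10 of 55573 genes in the count table, and each symbol matched 1 row. RNA came from mouse retina, from cells purified by fluorescence-activated sorting and labelled as retinal ganglion cells (RGCs), which send the axons of the optic nerve to the brain. All mice were C57BL/6 and carried floxed Myh9 and Myh10, the genes of the nonmuscle myosin IIA and IIB heavy chains. The 3 libraries labelled WT came from eyes injected intravitreally with the viral vector AAV2-GFP, and the 3 libraries labelled dKO from eyes injected with AAV2-Cre, in both cases 2 weeks before collection. Each library pooled 3 retinas of 3 mice, and neither the promoter of the vectors nor the age of the mice is given in the sources used here. Whether replicates of a group came from separate mice is not stated, so each p-value reflects spread among libraries that may be technical. Values listed per library run from replicate 1 to replicate 3, with the WT libraries first.

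Metallothioneins are small cysteine-rich proteins that bind zinc and copper. Mt1 and Mt2 are induced in many tissues by metals, glucocorticoids and injury, in the retina mainly in glia, while Mt3 is the neural form. Iron reaches cells bound to transferrin, enters through the transferrin receptor, is stored in ferritin shells and leaves through ferroportin (Slc40a1), after which ceruloplasmin (Cp) oxidises it for transferrin. In Müller glia and astrocytes Cp is largely a membrane-anchored form. When cellular iron is low, iron regulatory proteins bind hairpins called iron-responsive elements: at the 5′ end of ferritin and ferroportin transcripts this blocks translation, and at the 3′ end of the Tfrc transcript it protects the RNA from decay. Counts of RNA can therefore show the Tfrc arm of this control but not the translation of ferritin.

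The elements are printed because they separate the members whose RNA level answers to iron from those whose translation does. A search of GENCODE M21 transcripts (GRCm38) for a bulged C, 5 bases, the loop CAGTGN with A, C or T last, and 5 bases pairing with the first 5 found matches in 4 of the 10 genes. The same search matched the 5′ untranslated region of 17 of 20537 coding genes (0.083%) and the 3′ untranslated region of 85 of 21579 (0.394%). A match is a description of the letters, not proof of binding. The capitals mark the loop in each element, given 5′ to 3′ on the transcript strand:
Fth1, 5′ region, chr19:9982732-9982760, plus strand: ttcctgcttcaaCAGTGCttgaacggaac
Ftl1, 5′ region, chr7:45459779-45459807, minus strand: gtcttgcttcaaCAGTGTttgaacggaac
Slc40a1, 5′ region, chr1:45925465-45925493, minus strand: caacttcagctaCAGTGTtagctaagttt
Tfrc, 3′ region, first of 4, chr16:32631219-32631247, plus strand: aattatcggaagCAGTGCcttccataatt
Tfrc, 3′ region, element 3 of 4, chr16:32631663-32631691, plus strand: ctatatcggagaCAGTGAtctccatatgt
Tfrc, 3′ region, last of 4, chr16:32631710-32631738, plus strand: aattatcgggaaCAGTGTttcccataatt

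The Fth1 and Ftl1 elements were identical at 26 of 29 bases, the first and last Tfrc elements at 24 and the first and element 3 at 19. The element of Tfrc left out here matched the first at 25 of 29 bases. The Slc40a1 element shared 13 of 29 bases with that of either ferritin. In the transcripts searched, the bulged C was base 84 of a 253-base 5′ untranslated region for Ftl1 and base 96 of 319 for Slc40a1. For Fth1 it was base 664 of 795, much farther from the start of the transcript.

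The libraries held 4569880 to 6146226 counts, but 1 ribosomal RNA row took 64.2% to 92.8% of them, leaving 346037 to 576060 counts for all other genes in 5 libraries and 1636581 in dKO replicate 3. The targeted genes did not bear out the labels: Myh9 had 291, 216 and 238 counts in WT and 332, 273 and 891 in dKO, with log2 fold changes of -0.044 ± 0.098 (SE) for Myh9 and -0.15 ± 0.14 for Myh10 (edgeR adjusted p = 0.908 and 0.735). A gene's count includes exons outside any floxed part, and WT and dKO are used below as the labels of libraries. RGC markers were sparse: the 14 on the list took 0.0246% to 0.0298% of the non-ribosomal counts (all counts but that row) in WT and 0.0346% to 0.0373% in dKO, and Pou4f2 and Pou4f3 had no WT count. Müller glia and astrocyte markers took 3.11% to 3.22% in WT and 3.23% to 3.50% in dKO, so the metal genes were read from a mixed population. Rod markers took 0.168% to 0.190% in WT and 0.322% to 0.398% in dKO (7 of 11 tested rose). Bipolar cell markers took 0.167% to 0.176% in WT and 0.121% to 0.126% in dKO (4 of 7 fell). Cone markers took 0.0122% to 0.015% in WT and 0.00611% to 0.00993% in dKO (1 of 2 tested fell). B and plasma cell markers took 0.263% to 0.342% in WT and 0.222% to 0.237% in dKO (1 of 2 tested fell). The part of these cell types in the results below was not tested. In such bulk RNA, fewer cells of a type and less RNA per cell cannot be told apart.

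None of the 10 metal genes was called different between the groups. Of the 7 with enough counts to test, 0 passed an adjusted p of 0.05 (edgeR quasi-likelihood test), where 1.92% of the 8444 genes tested did. At an unadjusted p under 0.05 the count was 2, Mt2 and Ftl1, with edgeR and with limma-voom and 1 with DESeq2, where 12.5% of all genes tested had such a p with edgeR. It was 1 with the replicate block and without any 1 WT library, and 0 without dKO replicate 3. Neither of the other tools called a member. All 7 log2 fold changes were above 0, with a median of 0.149, against 49.8% of all genes tested and a median of -0.0007. Since the filter on low counts chose those 7, the fit without it is given too: there 9 of 10 members were above 0, with a median of 0.165, against 54.3% and 0.0541 over 21821 genes.

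**Figure D1:**
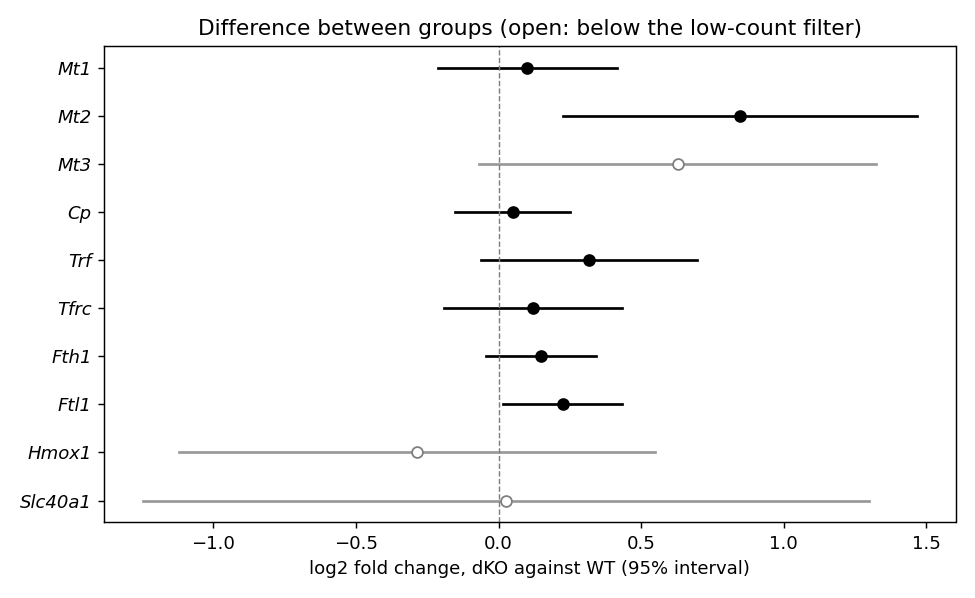
The log2 fold change of each gene, dKO against WT, on the x axis, with its 95% interval from edgeR; filled points passed the filter on low counts, and open points are from the fit without that filter. The intervals of Mt2 and Ftl1 lie above 0, although neither passed after adjustment over all genes, and the intervals of the other genes include 0.

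Counts of metallothionein RNA came mainly from Mt1. The genes lie in 1 cluster on the plus strand of chromosome 8 (GRCm38): Mt3 (ENSMUSG00000031760) at 94152607 to 94154146, Mt2 (ENSMUSG00000031762) at 94172664 to 94173568 and Mt1 (ENSMUSG00000031765) at 94179082 to 94180327, with 5513 bases between Mt2 and Mt1. Mt4, the fourth gene of the cluster and a form of stratified epithelium, had no count in any library. Levels are in CPM, counts divided by a library size adjusted by TMM, the ribosomal RNA row included, on the usual scale.

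Mt1 had 56, 43 and 37 counts in WT and 61, 52 and 197 in dKO. Scaled, these were 12.2, 13.6 and 9.44 CPM in WT and 11.7, 12.6 and 12.9 CPM in dKO. The groups overlapped, and WT replicate 3 was the lowest of the 6. The log2 fold change was 0.10 ± 0.16 (SE; adjusted p = 0.854), with a 95% interval of 0.862-fold to 1.33-fold. Without WT replicate 3 the value was -0.0325, so the sign rested on that library.

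Mt2 was low in WT, with 15, 6 and 7 counts, and had 18, 17 and 73 in dKO. Its level was 3.28, 1.90 and 1.79 CPM in WT and 3.46, 4.13 and 4.77 CPM in dKO. The 3 dKO values were above the 3 WT values, by a narrow margin between WT replicate 1 and dKO replicate 1. Group means were 2.32 ± 0.830 and 4.12 ± 0.656 CPM (SD, n = 3 each), the largest fitted fold change of the members tested (log2 0.85 ± 0.31, SE; 1.80-fold, 95% interval 1.17 to 2.76; adjusted p = 0.176). Groups that did not overlap were found for 17.0% of all genes tested, and for 8.66% with dKO higher. Mt2 entered the test through 4 libraries, the 3 of dKO and WT replicate 1, so its place among the genes tested leaned on the group where it was higher. The summed counts, 28 against 108, gave 1.82 after scaling, with a counting error of 1.19 to 2.87 (95% exact binomial).

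Mt3 had too few counts to test, with 7, 6 and 10 in WT and 11, 11 and 53 in dKO. The levels were 1.53, 1.90 and 2.55 CPM in WT and 2.11, 2.67 and 3.46 CPM in dKO, and the groups overlapped. In the fit without the filter its log2 fold change was 0.63 ± 0.35 (SE; adjusted p = 0.747) and 0.257 once dKO replicate 3 was left out of that fit.

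**Figure D2:**
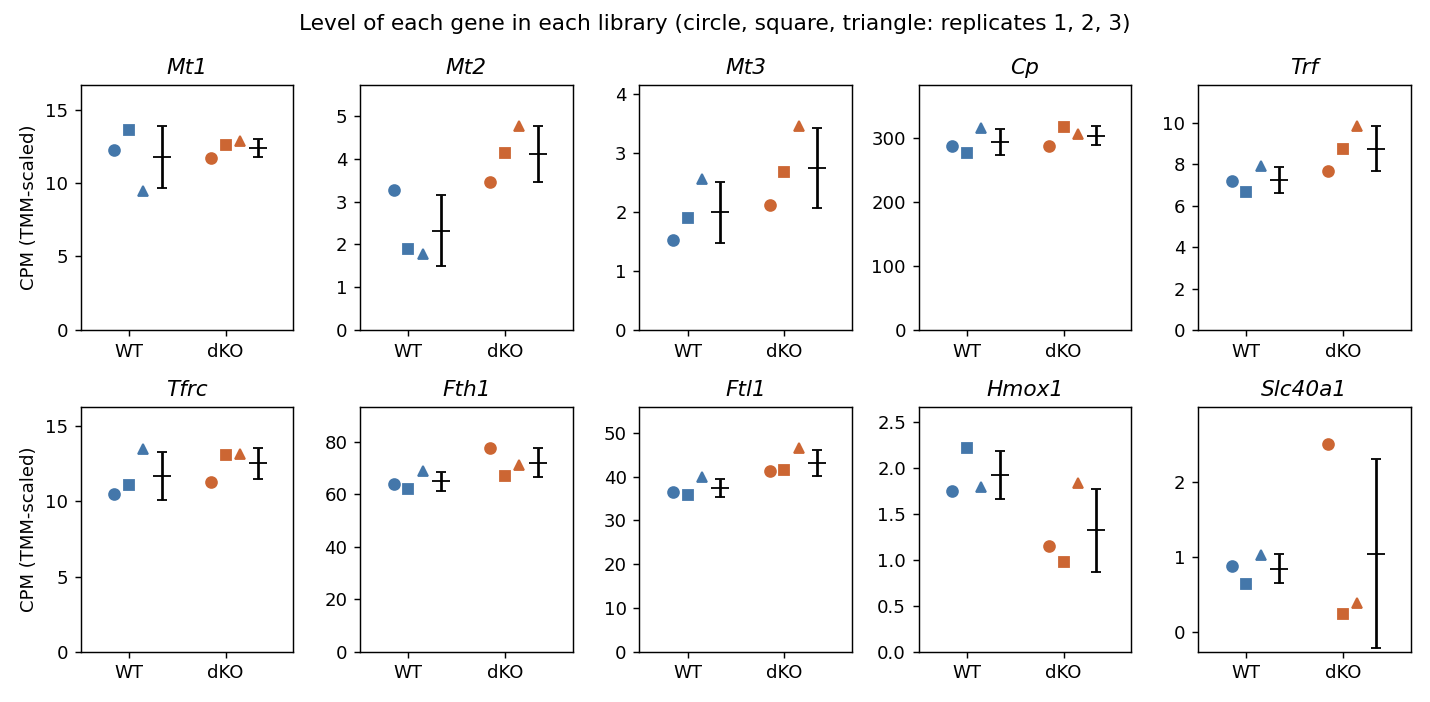
The level of each of the 10 genes in every library in TMM-scaled CPM on a linear axis, with circles, squares and triangles for replicates 1, 2 and 3 and, beside them, the group mean and SD. WT and dKO points overlap in 8 panels. The dKO points lie above the WT points for Mt2 and Ftl1, a separation found for 8.66% of all genes tested.

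Together Mt1, Mt2 and Mt3 held 54 to 78 counts per WT library. Their share of non-ribosomal counts was 0.0156%, 0.0159% and 0.0122% in WT, then 0.0156%, 0.0176% and 0.0197% in dKO. The exact binomial 95% intervals ran from 0.00920% to 0.0160% for the lowest library and from 0.0176% to 0.0220% for the highest. WT replicate 1 and dKO replicate 1 were level, and the group means were 0.0146% ± 0.00203 and 0.0177% ± 0.00206 (SD, n = 3 each). The exact permutation test, two-sided, gave p = 0.2. The difference of 0.00308 percentage points was 0.00191 without WT replicate 3 and 0.00205 without dKO replicate 3. With all counts as the denominator it was 0.00221 (exact permutation p = 0.1), a value that also reflects the ribosomal RNA row. That row took 64.19% of counts in dKO replicate 3 and 89.78% to 92.82% in the other libraries. With 3 against 3 libraries the exact permutation test cannot go below 0.1, and intervals here cover counting error only.

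The balance between Mt1 and Mt2 needs no scaling between libraries. It is built from the counts given above, so it is not independent of the Mt2 difference. Mt1 made up 78.9%, 87.8% and 84.1% of Mt1 plus Mt2 counts in WT, and 77.2%, 75.4% and 73.0% in dKO. All dKO libraries were below all WT libraries, with means of 83.6% ± 4.46 and 75.2% ± 2.13 (SD, n = 3 each). The exact permutation test, two-sided, gave p = 0.1, the smallest this design allows. The gap between WT replicate 1 and dKO replicate 1 was small beside their exact binomial intervals, 67.6% to 87.7% and 66.4% to 85.9%. The difference of -8.39 percentage points ranged from -10.7 to -6.30 when 1 library was left out.

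**Figure D3:**
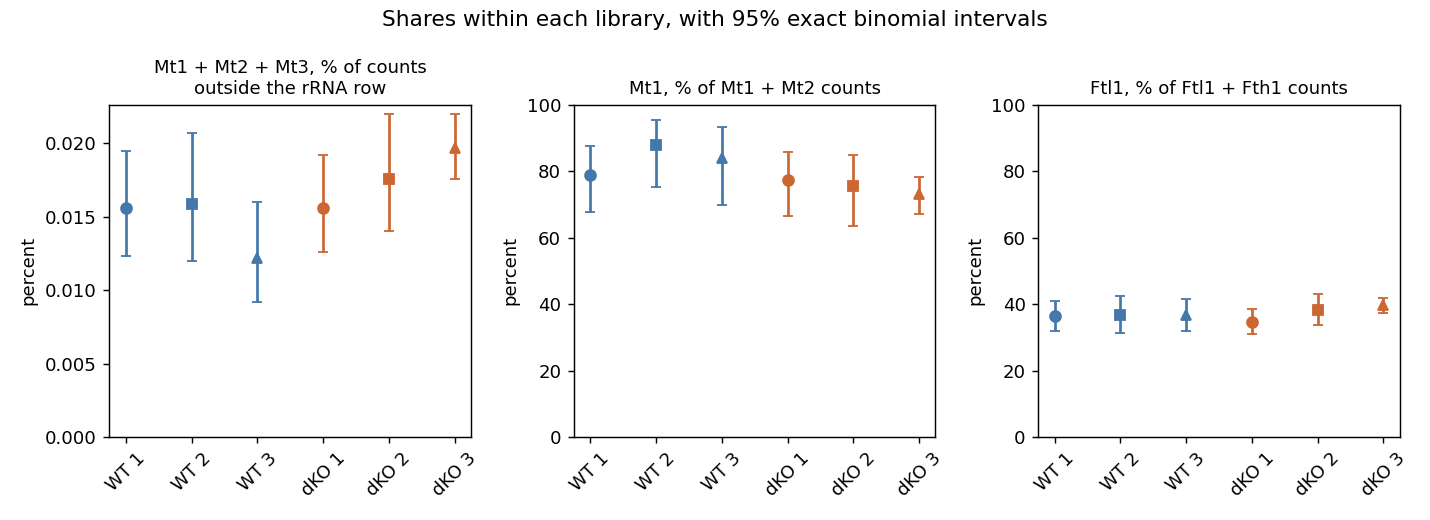
Shares within each library in percent, with 95% exact binomial intervals: the 3 metallothioneins among non-ribosomal counts (left), Mt1 among Mt1 plus Mt2 (middle) and Ftl1 among Ftl1 plus Fth1 (right). The Mt1 share is 78.9% to 87.8% in WT and 73.0% to 77.2% in dKO, and the intervals of single libraries overlap between groups.

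Neither iron uptake gene passed. Trf (ENSMUSG00000032554, chromosome 9, 103204001 to 103230444, minus strand) encodes transferrin, made in the central nervous system largely by oligodendrocytes and choroid plexus. It had 33, 21 and 31 counts in WT and 40, 36 and 151 in dKO, or 7.21, 6.65 and 7.91 CPM and 7.68, 8.74 and 9.86 CPM. Only dKO replicate 1 fell inside the WT range (log2 fold change 0.32 ± 0.19, SE; adjusted p = 0.514), and without dKO replicate 3 the value was 0.164 (adjusted p = 0.899). Of the 3320 exon bases of Trf, 2108 are shared with Gm20425, a gene model on the same strand listed at 0, and the treatment of shared reads is not given in the sources used here.

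The oligodendrocyte list is given beside Trf. Its 7 markers summed to 0.0173% to 0.0216% of non-ribosomal counts in WT and 0.0248% to 0.0265% in dKO, led by Cnp (log2 fold change 0.35 ± 0.13, SE) and Mbp (0.33 ± 0.26), while Mog, Mobp and Cldn11 were at 0 in every library. Neither Cnp nor Mbp passed (adjusted p = 0.171 and 0.667). With 3 of the 7 markers at 0, the list does not show that oligodendrocytes were present. The 8 pigment epithelium markers summed to 0.000801% to 0.00231% in WT and 0.0011% to 0.00199% in dKO, and none had enough counts to test. The part of either cell type in the Trf value was not tested.

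Tfrc (ENSMUSG00000022797, chromosome 16, 32608920 to 32632794, plus strand), the receptor that takes in iron-loaded transferrin, had 48, 35 and 53 counts in WT and 59, 54 and 202 in dKO. At 10.5, 11.1 and 13.5 CPM in WT and 11.3, 13.1 and 13.2 CPM in dKO the groups overlapped, and WT replicate 3 was the highest of the 6 libraries. Its log2 fold change was 0.12 ± 0.16 (SE; adjusted p = 0.819), which left an interval of 0.876-fold to 1.35-fold. Tfrc is the member whose RNA carries the 3′ elements printed above.

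Ferritin RNA was abundant, and neither chain passed the threshold, although both fitted values were above 0. Fth1 (ENSMUSG00000024661, chromosome 19, 9980598 to 9985098, plus strand) encodes the heavy chain, which oxidises iron as it enters the shell. With 292, 195 and 270 counts in WT and 405, 275 and 1090 in dKO, it stood at 63.8, 61.8 and 68.9 CPM and at 77.7, 66.7 and 71.2 CPM. The dKO replicate 2 value lay inside the WT range (log2 fold change 0.15 ± 0.097, SE; adjusted p = 0.573; 0.969-fold to 1.27-fold).

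Ftl1 (ENSMUSG00000050708, chromosome 7, 45457944 to 45459884, minus strand) encodes the light chain, which helps form the mineral core. It had 167, 113 and 156 counts in WT and 215, 171 and 714 in dKO. The levels of 36.5, 35.8 and 39.8 CPM in WT lay below those of 41.3, 41.5 and 46.6 CPM in dKO, with no overlap. Such a separation, with dKO higher, was found for 8.66% of all genes tested. Group means were 37.4 ± 2.13 and 43.1 ± 3.03 CPM (SD, n = 3 each), a log2 fold change of 0.22 ± 0.10 (SE; 1.17-fold, 95% interval 1.01 to 1.35; adjusted p = 0.342). Without dKO replicate 3 it was 0.148 (adjusted p = 0.764), and no member then had an unadjusted p under 0.05.

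The light chain's part of ferritin RNA did not separate the groups. Ftl1 made up 36.4%, 36.7% and 36.6% of Ftl1 plus Fth1 counts in WT, and 34.7%, 38.3% and 39.6% in dKO, so that the dKO values lay on both sides of the WT values. The means were 36.6% ± 0.160 and 37.5% ± 2.55 (SD, n = 3 each), with p = 0.6 in the exact permutation test, two-sided. The WT spread was smaller than the exact binomial interval of any 1 library, such as 32.0% to 41.0% in WT replicate 1. Both ferritins have many processed copies in the mouse genome. Of the 5 rows named as ferritin pseudogenes, Ftl1-ps1 had 10 counts over all libraries, Fth-ps2 had 2, Ftl2-ps had 1 and the others had none, so reads that match several copies could still be uncertain for both genes.

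Cp was the member with the most counts and among the most abundant coding genes. The gene (ENSMUSG00000003617, chromosome 3, 19957054 to 20009145, plus strand) had 1315, 873 and 1236 counts in WT and 1495, 1307 and 4687 in dKO. Levels were 287, 277 and 315 CPM in WT and 287, 317 and 306 CPM in dKO, and the 2 ranges nearly coincided. Its log2 fold change was 0.049 ± 0.10 (SE; adjusted p = 0.897), so a change outside 0.900-fold to 1.19-fold lay beyond the 95% interval. It shares 108 exon bases with Hps3 on the opposite strand, which had 242 counts in all. Per kilobase of merged exon length it ranked 60 of 15378 coding genes with a count, by WT mean. Heph, hephaestin, the other iron oxidase of the retina, had a mean of 10.8 ± 0.539 CPM in WT against 9.45 ± 0.807 in dKO (SD, n = 3 each; log2 fold change -0.15 ± 0.17, SE; adjusted p = 0.794).

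The Müller glia and astrocyte markers set beside Cp and the metallothioneins did not overlap between groups in their summed share, given above, by a narrow margin. All 14 were tested, 9 had a value above 0 and only Gfap, the filament of reactive glia, rose (log2 fold change 0.69 ± 0.12, SE; adjusted p = 4.04e-05), from 23.1 ± 2.77 to 37.9 ± 4.08 CPM (SD, n = 3 each). Glul, glutamine synthetase, and Clu, clusterin, the list's most abundant genes, did not pass (0.054 ± 0.11 and 0.18 ± 0.11, SE), nor did Apoe (0.15 ± 0.11). The part of glial content in the Mt1, Mt2 and Cp values was not tested.

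Slc40a1 and Hmox1, both known from iron-recycling macrophages, were near the limit of detection. Slc40a1 (ENSMUSG00000025993, chromosome 1, 45908068 to 45926523, minus strand) had 4, 2 and 4 counts in WT and 13, 1 and 6 in dKO, or 0.874, 0.634 and 1.02 CPM and 2.50, 0.243 and 0.392 CPM. The dKO libraries lay on both sides of WT, with dKO replicate 1 the highest of all 6 although dKO replicate 3 was far deeper. Without the filter the log2 fold change was 0.026 ± 0.65 (SE; adjusted p = 0.999), and a difference could not be resolved at this depth.

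Hmox1 (ENSMUSG00000005413, chromosome 8, 75093621 to 75100589, plus strand), the stress-induced enzyme that opens heme and frees its iron, had 8, 7 and 7 counts in WT and 6, 4 and 28 in dKO. Its levels were 1.75, 2.22 and 1.79 CPM in WT and 1.15, 0.971 and 1.83 CPM in dKO, and only dKO replicate 3 reached the WT range. Hmox1 was the single member with a negative value in the fit without the filter (-0.29 ± 0.43, SE; adjusted p = 0.814). The summed counts of 22 and 38 gave 0.817 after scaling, with a counting error of 0.471 to 1.45 (95% exact binomial). Of those 38 counts, dKO replicate 3 held 28. The ratio of mean levels was 0.687 with all libraries and 0.554 without dKO replicate 3, which left dKO with 6 and 4 counts. Hmox2, the constitutive enzyme, had a log2 fold change of 0.10 ± 0.25 (SE; adjusted p = 0.917).

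Macrophage and blood markers are given beside these genes. The 14 microglia and macrophage markers summed to 0.734% to 0.797% of non-ribosomal counts in WT and 0.791% to 0.843% in dKO, and none was at 0. Among them Lyz2, lysozyme, rose (log2 fold change 0.50 ± 0.097, SE; adjusted p = 0.000392), while the abundant Ctss, cathepsin S, did not pass (-0.099 ± 0.098). Of 7 red blood cell genes, none had a count in WT, and 4 were at 0 in all 6 libraries, so heme genes of blood were at or near 0. The part of macrophages in the Slc40a1 and Hmox1 values was not tested.

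Compared with each other per kilobase of merged exon length, the 10 genes spanned over 2 orders of magnitude. In WT the order was Cp at 30.6 ± 2.09 CPM per kb, Ftl1 at 27.9 ± 1.59, Fth1 at 18.7 ± 1.05, Mt1 at 9.44 ± 1.71, Mt2 at 3.95 ± 1.41, Trf at 2.19 ± 0.189, Tfrc at 1.89 ± 0.259, Mt3 at 1.87 ± 0.485, Hmox1 at 1.10 ± 0.149 and Slc40a1 at 0.0936 ± 0.0217 (SD, n = 3 each). The ranges of mean ± SD overlapped for Cp and Ftl1, and for Trf, Tfrc and Mt3. Within each WT library, however, Cp was above Ftl1 and Trf above Tfrc. In dKO the order began with Ftl1 at 32.2 ± 2.26 and Cp at 31.7 ± 1.60, and Mt2 at 7.00 ± 1.12 came nearer to Mt1 at 9.95 ± 0.489.

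The order depends on the length used. Merged exons include retained introns of several genes, as for Mt1, whose 1246 merged bases cover the whole gene against 549 in its principal transcript. With that shorter length, chosen after seeing the data, Cp led in WT at 72.7 ± 4.95 CPM per kb, followed by Fth1 at 43.4 ± 2.44, Ftl1 at 38.6 ± 2.20 and Mt1 at 21.4 ± 3.88 (SD, n = 3 each). Fth1 thus stood below Ftl1 by one length and above it by the other, and Mt3 moved to 3.72 ± 0.964, above Trf and Tfrc. Among transcripts ranked equally as principal the longest was taken. For Fth1 the transcript used had 1494 bases, 795 of them in the 5′ untranslated region, so its place also depends on that choice.

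**Figure D4:**
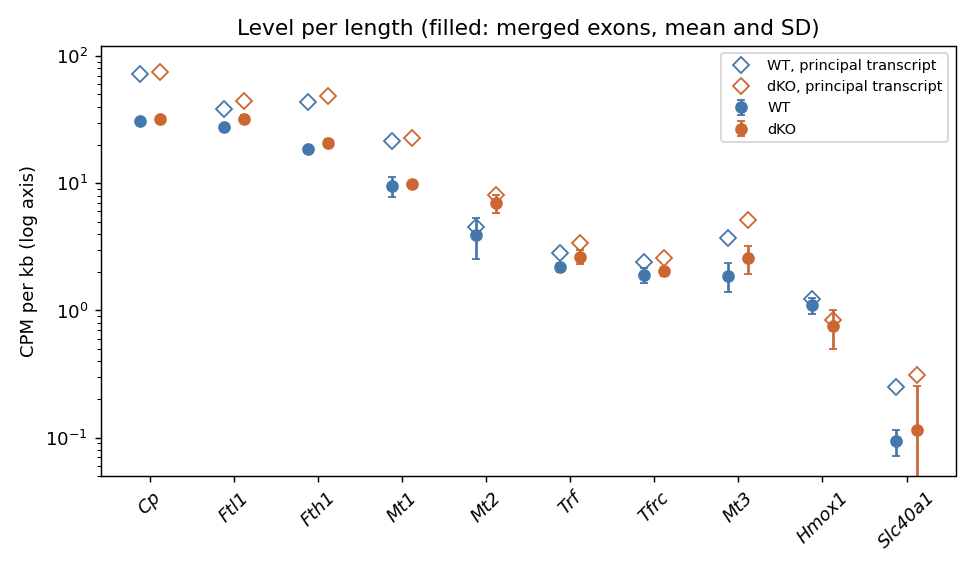
The mean level of each gene in CPM per kb on a log axis, WT and dKO side by side. Filled points with SD use merged exon length, and open diamonds use the principal transcript. Cp, Ftl1 and Fth1 lie highest and Slc40a1 lowest by both lengths.

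Genes that act around these members were read from lists by pathway. The 8 lists of iron uptake, ferritin turnover, iron export, iron control, heme, iron-sulfur clusters, zinc and copper hold 98 genes besides the members. Of the 53 that were tested none rose and none fell, 28 had a value above 0, and the median log2 fold change was 0.0217. The smallest p among uptake genes belonged to Lrp1, a scavenger receptor that clears the heme carrier hemopexin, at -0.29 ± 0.096 (SE; adjusted p = 0.116), followed by the zinc and iron importer Slc39a14 (0.25 ± 0.20; 0.664). Pcbp2, an RNA-binding protein that also delivers iron to ferritin, had -0.47 ± 0.15 (adjusted p = 0.0943), and Ncoa4, the receptor for ferritin breakdown, had 0.16 ± 0.22 (0.822).

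The iron control list holds the iron regulatory proteins, which bind the elements printed above, besides genes of bone morphogenetic protein signalling and other regulators. Aco1, iron regulatory protein 1, had a mean of 8.82 ± 1.33 CPM in WT against 10.5 ± 2.85 in dKO (SD, n = 3 each; log2 fold change 0.24 ± 0.18, SE; adjusted p = 0.665), and Smad1, a relay of bone morphogenetic protein signals, had -0.57 ± 0.26 (adjusted p = 0.335). For heme synthesis the smallest p belonged to Urod (0.50 ± 0.30; 0.514) and Alas1, its first enzyme (0.21 ± 0.21; 0.758). Among iron-sulfur cluster genes Nfu1 had -0.66 ± 0.38 (0.479) and Cisd2 had -0.35 ± 0.25 (0.625).

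Zinc and copper genes were likewise below the threshold. Mtf1, the zinc sensor that drives Mt1 and Mt2 transcription, had a log2 fold change of 0.12 ± 0.28 (SE; adjusted p = 0.910). Another of its known targets, the zinc exporter gene Slc30a1, had -0.34 ± 0.24 (0.622), and the importer Slc39a1 had 0.24 ± 0.14 (0.515). For copper, the chaperone gene Atox1 had 0.83 ± 0.33 (0.225), with 2.20 ± 0.570 CPM in WT against 3.70 ± 0.329 in dKO (SD, n = 3 each). Its groups did not overlap, as for 8.66% of all genes tested with dKO higher. The copper importer Slc31a1 had -0.22 ± 0.25 (0.791).

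Pathways known to induce metallothioneins, ferritin or Hmox1 gave 3 calls among 41 tested genes (7.32%), 2 higher and 1 lower, against 1.92% of all genes tested. The lists were chosen with earlier results of these data known, so these rates are not a test of the pathways. None of 12 tested targets and regulators of NRF2, the oxidative stress factor, passed; the smallest p belonged to Srxn1 (log2 fold change 0.75 ± 0.31, SE; adjusted p = 0.250) and the cystine transporter gene Slc7a11 (0.91 ± 0.40; 0.290). None of 8 tested glucocorticoid response genes passed, Sgk1 (0.80 ± 0.24; 0.0690) and Dusp1 (0.63 ± 0.23; 0.162) having the smallest p. Gfap was the only 1 of 12 tested STAT3 and reactive glia genes to pass. Of 9 tested hypoxia genes the glycolytic Pgk1 rose (0.46 ± 0.13; 0.0386) and Epas1, the factor HIF-2α, fell (-0.64 ± 0.13; 0.000879). The Pgk1 call was lost with DESeq2 (adjusted p = 0.420), limma-voom (0.0639) and the replicate block (0.0589). It was also lost when WT replicate 1 (0.300) or 2 (0.331) was left out, and when dKO replicate 2 (0.0636) or 3 (0.149) was. The log2 fold change itself ranged from 0.339 (without WT replicate 2) to 0.485 (limma-voom) over these fits. Medians over tested genes were 0.0822, 0.0726, 0.145 and -0.0235 for these 4 lists.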

How the data were processed

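Sequencing libraries of total RNA from sorted cells were made with a stranded kit that does not select poly(A) RNA, per the labels' protocols. The authors deposited raw read counts, with no normalization, for each gene. The submitters' processing notes name STAR 2.7.0d, DESeq2 1.22.2 and GRCm38; no counting program, strand setting or annotation is given in the sources used here, so overlapping and antisense genes, such as the 432 exon bases of Mt2 under Gm45774 (5 counts), cannot be told apart. Positions and lengths are from GENCODE M21, which held 55480 of 55573 gene IDs.

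Counts were kept by filterByExpr (minimum count 10, minimum total 15), scaled by TMM (factors 0.641 to 3.43) and tested with edgeR 4.0.16 in R 4.3.3 by the two-sided quasi-likelihood F test on the group alone, with Benjamini-Hochberg adjustment over 8444 genes. Standard errors are the log2 fold change over the square root of F. The fit was tried on simulated counts with a shared dispersion and, outside the genes set to change, the same expected gene shares in every library. That trial checked fold changes and false calls, not standard errors, and it did not copy the uneven ribosomal RNA row. Members, lists and tests were chosen with earlier results of these data known; from each list the rule names up to 4 called genes or the 2 with the smallest p, and from marker lists the most abundant and the called genes (1 gene the rule names is not reported here); genes named besides these, such as Mtf1 and Hmox2, were chosen after their values were seen. As alternatives, scaling by RLE, upper quartile or library total was tried, as were the ribosomal RNA row left out, other filters, DESeq2 1.42.0, limma-voom (limma 3.58.1), a replicate block, each library left out and, chosen after seeing the data, lengths of principal transcripts. Replicate pairs differed by more than counting noise (chi-square per degree of freedom 1.16 to 4.19), so each library counted as 1 replicate. Figures used matplotlib 3.10.9.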

Additional observations from a re-analysis of the deposited data

How the results depend on the processing

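None of the 7 tested metal genes was called under any of the 15 alternatives; Mt3, Hmox1 and Slc40a1 could be fitted under only 8, 2 and 1 of those besides the fit without the filter, and were not called there. The sign of each tested member was kept, except that Mt1 ranged from -0.0325 (without WT replicate 3) to 0.192 with 1 library left out. Outside library-total scaling, Mt2 ranged from 0.644 to 1.22, Trf from 0.164 to 0.393, Tfrc from 0.025 to 0.243, Fth1 from 0.0999 to 0.197, Ftl1 from 0.148 to 0.273 and Cp from 0.00597 to 0.108. Library-total scaling, which follows the ribosomal RNA row, moved the median log2 fold change of all genes to 1.21 and called 3 higher and 0 lower genes against 62 and 100; under it Epas1 had 0.552, below that median, and Mt2 had 2.07 and Mt1 1.31. DESeq2 called 32 higher and 43 lower genes. Without 1 library the counts ran from 29 (WT replicate 1) to 71 higher and from 61 (WT replicate 1) to 115 lower; without dKO replicate 3 there were 66 lower. The metallothionein share difference ran from 0.00191 to 0.00411 percentage points with 1 library left out. Likewise, the Ftl1 share difference ran from -0.0547 (without dKO replicate 3) to 2.40 percentage points. The causes were not tested. The labels give both groups the same replicate numbers with no pairing. Deviations of same-numbered libraries had correlations of 0.0250, 0.0127 and 0.0281, and those of differently numbered libraries -0.0209 to -0.00253. All of these were small. The replicate block called 58 higher and 100 lower genes and no member. Depth limits the genes below the filter.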
